A study of Mus musculus with 4 samples.

Results

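The Bcl2 family genes that set the balance between survival and death were measured here in LSK cells, bone marrow cells that lack lineage markers, carry Sca-1 and c-Kit, and include hematopoietic stem cells and early progenitors. The members were 10 genes of 28095 gene names on the array, chosen by name and not by their values, and every non-control probe that carried 1 of these names was taken. *Bcl2*, *Bcl2l1* and *Mcl1* are pro-survival, and *Bax*, *Bak1*, *Bcl2l11*, *Bbc3*, *Pmaip1*, *Bid* and *Bad* are pro-death. Together they had 18 probes, of which 16 passed the filter on dim signals (8 pro-survival and 8 pro-death).

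Meis1-KO cells came from Mx1-Cre positive Meis1fl/fl mice, and Meis1-WT cells from Mx1-Cre negative Meis1fl/fl mice, so that both genotypes carried the floxed alleles. All mice were on the C57BL/6J background. According to the sample labels, mice aged 4 to 8 weeks received poly(I:C) intraperitoneally, 1.5 ug per g of body weight, 4 times at an interval of 1 day. The sources used here describe the control mice in some places as poly(I:C)-treated and in others as sham-treated, and if they were sham-treated, treatment and genotype cannot be told apart. The Mx1 promoter that drives Cre responds to interferon and is not restricted to hematopoietic cells, and each of 2 RNA samples per genotype was a pool of several mice taken a week after induction. A 10 ng portion of each RNA was amplified and measured, with 1 dye, on an array whose probes are 60 bases long. The numbers of the samples are those of the slides: Meis1-KO 1 and Meis1-WT 1 shared slide 1, and Meis1-KO 2 and Meis1-WT 2 shared slide 2.

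In mitochondrial apoptosis, BH3-only proteins relay stress to the rest of the family. They bind the pro-survival proteins in a groove on their surface, and some of them also engage the effectors Bax and Bak directly. Freed or activated effectors open the outer mitochondrial membrane, cytochrome c leaves, and Apaf1 and caspase-9 are activated. Hematopoietic stem cells are known to depend on Mcl1, which is short-lived and has to be made continuously.

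A comparison of these genes asks whether *Meis1* loss came with a shift in either arm of the family in the RNA of LSK cells. The criteria for a call were a difference of more than 2-fold with an unadjusted p under 0.01. No member met them: 0 of 8 pro-survival probes and 0 of 8 pro-death probes, against 0.600% lower and 0.136% higher among all 22007 tested probes (limma, genotype as the only term). None of the 16 had an unadjusted p under 0.05 in limma, in limma with the slide as a block, in limma with an intensity trend or in the methods' t-test, where 2.81% of all tested probes were under 0.05 in limma and 5.93% in limma with the block. The smallest unadjusted p of a member in limma was 0.341, and adjusted p-values lay between 0.983 and 0.998. The precision was low for these genes and for the whole array. The 95% intervals of the members reached from 1.03 to 1.57 to either side of the difference on the log2 scale, and 0 of 22007 tested probes had an interval that lay within 2-fold either way. For every member, a 2-fold difference in at least 1 direction thus lay inside the interval, and changes of that size were not detectable with 2 arrays per genotype. In such bulk samples, fewer cells of a type and less RNA per cell cannot be told apart.

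The sequences of 5 probes are printed. Most of their genes had more than 1 probe, and the values depend on which is considered. The sequences come from the deposited scanner output and were mapped by the array's annotation to mm9. The *Bcl2* probe lies at chr1:108608970-108609029 on the minus strand and the *Bak1* probe at chr17:27158232-27158291 on the minus strand. Which protein domains the probes cover was not determined. No part of these probes stands out from the rest, and they are printed without capitals.

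Bcl2 A_51_P380013: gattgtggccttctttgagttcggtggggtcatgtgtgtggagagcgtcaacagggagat
Bak1 A_52_P225207: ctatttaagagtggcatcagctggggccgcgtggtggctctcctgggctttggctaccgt

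The next probe was designed for *Bcl2l11*, which encodes Bim. The probe maps to chr2:127972893-127983988 on the plus strand, so that its 60 bases span 11096 bases of the genome and cross an intron.

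Bcl2l11 A_51_P484880: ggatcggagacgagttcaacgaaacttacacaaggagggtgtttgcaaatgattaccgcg

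The *Bax* probe maps to chr7:52721469-52721624 on the minus strand, where 60 bases span 156, and also crosses an intron. The *Bcl2l1* probe lies at chr2:152655185-152655244 on the minus strand.

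Bax A_51_P254541: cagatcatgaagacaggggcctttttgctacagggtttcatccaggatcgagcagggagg
Bcl2l1 A_52_P510877: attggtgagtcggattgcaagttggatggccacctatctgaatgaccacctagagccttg

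Of the other probes, the first 30 bases are given for the most downstream probes of *Bcl2* and *Bcl2l1*, which carry results described below. They map to chr1:108434793-108434852 and chr2:152606631-152606690, both on the minus strand, 174177 and 49099 bases downstream of the most upstream probe of the same gene.

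Bcl2 A_52_P534870: catataatggctctttgtttgtgttgttag
Bcl2l1 A_52_P148861: ttattccttgtgaagatgatatactatttt

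All values below are log2 signals relative to the 75th percentile of the same array, so that 0 is the 75th percentile itself. A level can be set against the same probe on another array, not against another probe.

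**Figure D1:**
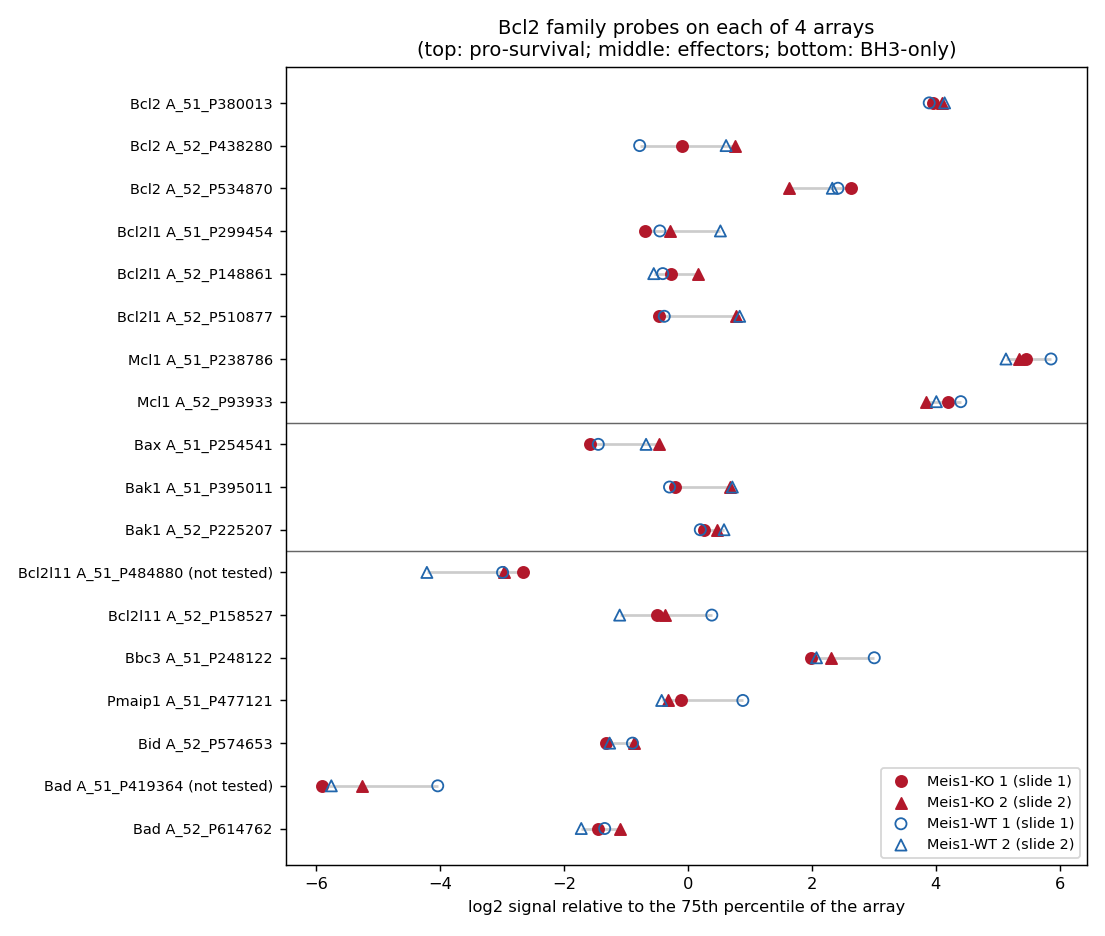
Signal of each of the 18 Bcl2 family probes on each array (x axis: log2 signal relative to the 75th percentile of the array; y axis: gene and probe). Filled red symbols are Meis1-KO, open blue symbols Meis1-WT, circles slide 1 and triangles slide 2, and the grey line joins the lowest and highest array. For Bax and for Bcl2l1 A_52_P510877 the triangles stand together on the right of the circles, whereas for Bbc3, Pmaip1 and Bcl2l11 A_52_P158527 the open circle stands alone.

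Among the pro-survival genes, the brightest probe of *Bcl2*, the most upstream of its 3, was almost the same on every array. It read 3.96 and 4.10 in Meis1-KO and 3.89 and 4.14 in Meis1-WT. The groups overlapped, and the difference was 0.013 ± 0.425 (SE, n = 2 arrays per genotype), with a 95% interval from -1.02 to 1.04. A second probe, 1660 bases further downstream and taken from a cDNA clone, read -0.092 and 0.76 in Meis1-KO and -0.78 and 0.62 in Meis1-WT. On both genotypes it was higher on slide 2, by 0.86 in Meis1-KO and 1.40 in Meis1-WT, and the difference between genotypes of 0.42 had an interval from -1.10 to 1.94.

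The most downstream probe of *Bcl2* gave a different picture from the most upstream probe on 1 array. It read 2.64 in Meis1-KO 1, 1.64 in Meis1-KO 2, 2.42 in Meis1-WT 1 and 2.33 in Meis1-WT 2, so that Meis1-KO 2 alone was low. This probe was printed at 10 spots per array, of which 8 were usable on Meis1-KO 2. The spots of that array lay between 1.54 and 1.73, under every spot of the other 3 arrays, the lowest of which was 2.24. The SD over spots within an array was 0.057 to 0.073, and the SD between the 2 Meis1-KO arrays was 0.71. The genotype difference was -0.24 with an interval from -1.47 to 0.99, and without Meis1-KO 2 it was 0.26.

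*Bcl2l1*, which encodes Bcl-xL, was read at 3 places. The probe nearest the start of the gene read -0.70 and -0.29 in Meis1-KO and -0.45 and 0.52 in Meis1-WT. The probe 545 bases downstream of it, whose sequence is printed above, read -0.46 and 0.77 in Meis1-KO and -0.38 and 0.83 in Meis1-WT. Both were higher on slide 2 in both genotypes. For the second of them the gain from slide 1 to slide 2 was 1.24 in Meis1-KO and 1.22 in Meis1-WT, whereas the genotypes differed by -0.071.

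The most downstream probe of *Bcl2l1* was the only tested member probe at which the genotypes did not overlap. It read -0.28 and 0.16 in Meis1-KO and -0.41 and -0.55 in Meis1-WT, so both Meis1-KO arrays were above both Meis1-WT arrays. The difference was 0.42 ± 0.44 (SE, n = 2), with an interval from -0.65 to 1.48 and an adjusted p of 0.983 in limma. Over its 10 spots, the lowest spot of Meis1-KO 2 (-0.0042) was above every spot of the other arrays, while the spots of Meis1-KO 1 (-0.40 to -0.098) overlapped those of Meis1-WT 1 (-0.50 to -0.33). In all, 1 of 16 member probes had Meis1-KO above Meis1-WT without overlap, against 16.0% of all tested probes, and 0 had it below, against 10.8%. The probe nearest the start differed the other way, by -0.53 (interval -1.78 to 0.72), so the 3 probes gave no common direction for *Bcl2l1*.

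*Mcl1* had 2 probes 1312 bases apart. The brighter read 5.45 and 5.33 in Meis1-KO and 5.86 and 5.13 in Meis1-WT, and the other read 4.20 and 3.84 in Meis1-KO and 4.40 and 4.01 in Meis1-WT. Meis1-WT 1 was the highest array at both probes. The differences were -0.10 (interval -1.24 to 1.03) and -0.18 (interval -1.26 to 0.90), and without Meis1-WT 1 they were 0.26 and 0.015.

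**Figure D2:**
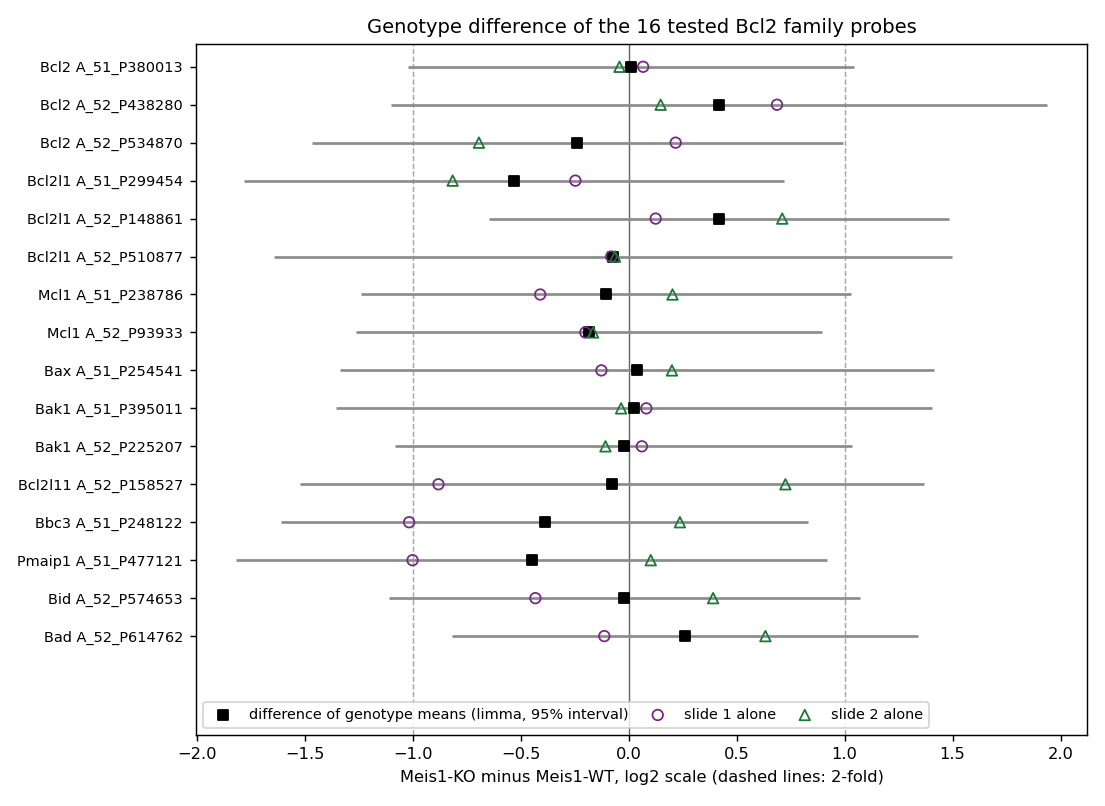
Difference between genotypes for the 16 tested Bcl2 family probes (x axis: Meis1-KO minus Meis1-WT on the log2 scale; y axis: gene and probe). Black squares with grey lines are the limma estimate and its 95% interval, purple circles the difference on slide 1 and green triangles that on slide 2, and dashed lines mark 2-fold. All intervals cross 0, and each of the 5 BH3-only probes has its circle left of 0 and its triangle right of 0.

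Over the 8 pro-survival probes, 5 were lower and 3 higher in Meis1-KO, with a median difference of -0.087, beside a median of 0.082 over all tested probes, of which 43.8% were lower. With quantile normalization the median of the 8 was -0.27, and with median scaling it was -0.0045, with 4 lower and 4 higher. On slide 1 the median was -0.0064 and on slide 2 -0.052.

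The effector probes differed more between the slides than between the genotypes. *Bax* read -1.57 in Meis1-KO 1 and -1.45 in Meis1-WT 1, and -0.48 in Meis1-KO 2 and -0.68 in Meis1-WT 2. Both slide 2 arrays were above both slide 1 arrays, by 1.10 in Meis1-KO and 0.77 in Meis1-WT, and the 2 Meis1-KO arrays were the lowest and the highest of the 4. The probe had 10 spots per array, repeats within 1 hybridization whose spread covers measurement error only and not that between samples, and the highest spot on slide 1 was at -1.37 and the lowest on slide 2 at -0.82. The genotype difference of *Bax* was 0.038 ± 0.57 (SE, n = 2), with an interval from -1.34 to 1.41.

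**Figure D3:**
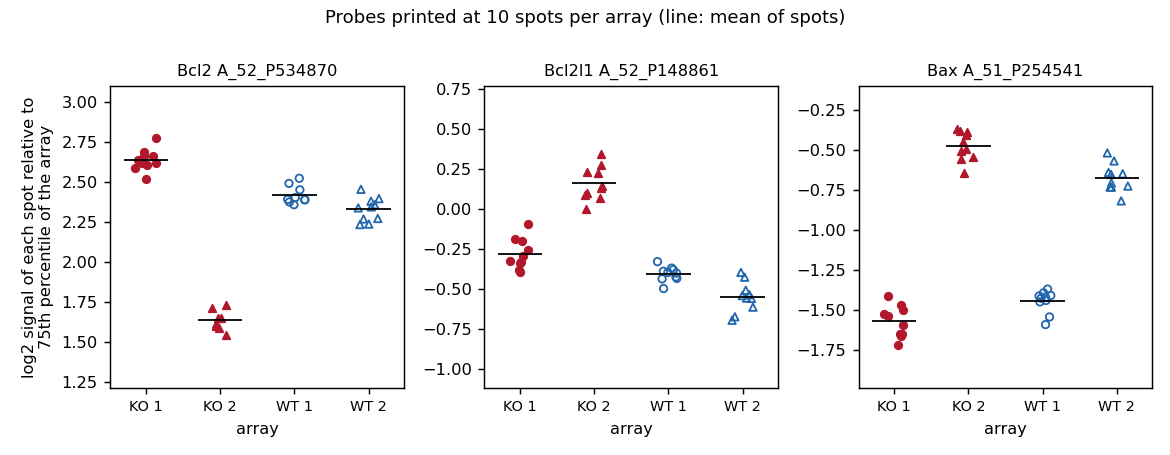
Single spots of the 3 member probes that the array carries 10 times (x axis: array; y axis: log2 signal of a spot relative to the 75th percentile of the array; black lines: mean of the spots used). The spots of an array lie close together, so that the low Bcl2 signal on Meis1-KO 2 and the higher Bax signals on both slide 2 arrays are seen at every spot.

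The *Bak1* probe whose sequence is printed above read 0.26 and 0.47 in Meis1-KO and 0.20 and 0.58 in Meis1-WT, and the probe 1265 bases downstream read -0.22 and 0.68 in Meis1-KO and -0.30 and 0.72 in Meis1-WT. Both were higher on slide 2 in both genotypes. Their genotype differences were -0.023 (interval -1.08 to 1.04) and 0.024 (interval -1.36 to 1.40). Over all members, the mean difference between slides was larger than that between genotypes at 13 of 16 probes, against 59.8% of all tested probes. Markers of granulocytes and monocytes also differed between the slides: the summed linear signal of the 10 listed genes, in units of the 75th percentile, was 174 and 188 on slide 1 (Meis1-KO, Meis1-WT) and 119 and 61.7 on slide 2. *Mpo* made up most of that sum on every array. *S100a8*, *S100a9*, *Ngp*, *Camp* and *Ltf* were lower on slide 2 in both genotypes, with differences (slide 2 minus slide 1) from -4.75 to -2.28, and *Camp* and *Ltf* were not well above background there. *Prtn3* was higher on slide 2 in both genotypes. *Elane*, which encodes neutrophil elastase, was lower in Meis1-KO, at -2.53 and -2.28 against -0.84 and -0.81 in Meis1-WT, and its difference of -1.58 met the criteria in limma (unadjusted p = 0.00930, adjusted p = 0.983). Whether this has a part in the slide difference of *Bax*, *Bak1* and *Bcl2l1* was not tested.

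Among the BH3-only genes, the control array of slide 1 was the highest for *Bbc3*, *Pmaip1* and *Bcl2l11*. *Bbc3*, which encodes the p53 target Puma, read 1.99 and 2.31 in Meis1-KO, 3.01 in Meis1-WT 1 and 2.07 in Meis1-WT 2. *Pmaip1*, which encodes Noxa, another p53 target that binds Mcl1, read -0.11 and -0.32 in Meis1-KO, 0.89 in Meis1-WT 1 and -0.42 in Meis1-WT 2. The tested probe of *Bcl2l11*, which encodes Bim, read -0.50 and -0.38 in Meis1-KO, 0.38 in Meis1-WT 1 and -1.10 in Meis1-WT 2.

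For these genes Meis1-WT 1 was high and Meis1-WT 2 was at or under the Meis1-KO arrays, apart from *Bbc3*, for which it was above Meis1-KO 1. The SD between the 2 control arrays was 0.66 for *Bbc3*, 0.93 for *Pmaip1* and 1.05 for *Bcl2l11*, while that between the Meis1-KO arrays was 0.23, 0.15 and 0.085. The genotype differences were -0.39 (interval -1.61 to 0.83) for *Bbc3*, -0.45 (interval -1.82 to 0.92) for *Pmaip1* and -0.077 (interval -1.52 to 1.37) for *Bcl2l11*. Without Meis1-WT 1 they were 0.077, 0.21 and 0.67.

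*Bid*, whose product is cleaved by caspase-8 and links death receptors to mitochondria, read -1.33 and -0.87 in Meis1-KO and -0.90 and -1.26 in Meis1-WT. The slides crossed: Meis1-KO was below Meis1-WT by 0.43 on slide 1 and above it by 0.39 on slide 2. The genotype difference of *Bid* was -0.020, with an interval from -1.11 to 1.07.

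*Bad* had 2 probes, and only 1 of them gave a usable signal. The probe with a RefSeq accession of *Bad*, on the plus strand as the gene is, was not well above background on any of the 4 arrays. The other, from a cDNA clone, read -1.46 and -1.09 in Meis1-KO and -1.34 and -1.72 in Meis1-WT, with a difference of 0.26 (interval -0.82 to 1.34). It maps to chr19:7025594-7025653 on the minus strand, opposite to *Bad*. The strand of the other 16 member probes whose gene has a strand in the RefSeq table was that of the gene. Its signal therefore may not be that of the *Bad* message, and no level of *Bad* itself could be given.

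The *Bcl2l11* probe whose sequence is printed above was likewise dim. It was well above background on both slide 1 arrays, at -2.66 in Meis1-KO 1 and -2.99 in Meis1-WT 1, and not well above background on either slide 2 array. It was not tested, and no fold was computed for it.

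**Figure D4:**
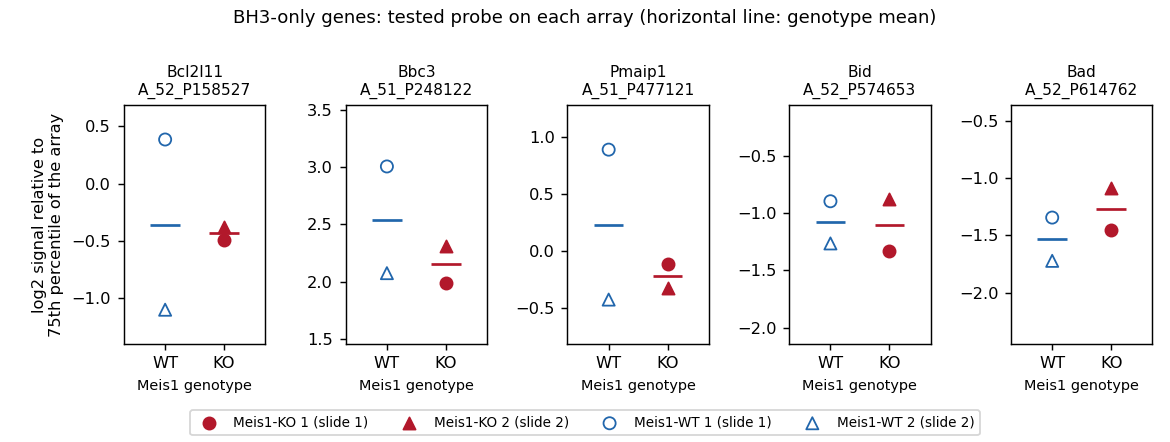
The tested probe of each BH3-only gene on the 4 arrays (x axis: Meis1 genotype; y axis: log2 signal relative to the 75th percentile of the array, panels of equal span; horizontal lines: genotype means of 2 arrays). The open circle of Meis1-WT 1 is the highest point for Bcl2l11, Bbc3 and Pmaip1, and in every panel the filled circle is below the open circle while the filled triangle is above the open triangle.

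Side by side within a slide, the BH3-only probes were lower in Meis1-KO on slide 1 in 5 of 5 cases and higher on slide 2 in 5 of 5, beside 46.4% and 55.8% of all tested probes. One of the 5 is the *Bad* clone probe, which may not read *Bad*, and without it both counts are 4 of 4. The differences on slide 1 were -1.02 for *Bbc3*, -1.0 for *Pmaip1*, -0.88 for *Bcl2l11*, -0.43 for *Bid* and -0.11 for the *Bad* clone probe. Those on slide 2 were 0.24, 0.10, 0.73, 0.39 and 0.63 in the same order. With the 3 effector probes, 0 of 8 pro-death probes differed in the same direction on both slides, while 5 of 8 pro-survival probes did, against 51.3% of all tested probes. The count for the pro-death probes was 1 with median scaling or quantile normalization and 2 with normexp background correction, and that for the pro-survival probes was 3 with median scaling and 6 with quantile normalization or normexp. For the pro-death probes it was 6 of 8 with no scaling between arrays, against 4 of 8 pro-survival probes, so the order of the 2 arms turned there. On that scale all 5 BH3-only probes were lower on both slides, and the scale also carries the weak overall signal of Meis1-KO 2, whose 75th percentile was 90.1 against 147 to 154 on the other arrays. Without scaling the median over all tested probes was -0.29.

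Over the 8 pro-death probes, 5 were lower and 3 higher in Meis1-KO, with a median of -0.021. The median was -0.28 on slide 1 and 0.22 on slide 2. With median scaling 2 were lower and 6 higher. Meis1-WT 1 was the highest array for 5 of 16 member probes (2 of *Mcl1* and 1 each of *Bbc3*, *Pmaip1* and *Bcl2l11*), against 17.7% of all tested probes. The sum of the B cell markers was also highest on this array, though not each marker: the summed linear signal of 6 genes, in units of the 75th percentile, was 18.5 on Meis1-WT 1, 7.39 on Meis1-WT 2 and 11.8 and 8.62 on the Meis1-KO arrays, with *Pax5* not well above background on any array. Most of each sum was *Vpreb1*, at 4.00 on Meis1-WT 1 and 2.60 to 3.38 on the other arrays on the log2 scale. *Cd79a* and *Cd79b* were also highest on Meis1-WT 1, whereas *Ms4a1* was highest on Meis1-KO 2 and *Ebf1* on Meis1-WT 2, the only array where it was well above background. Of the 6, 2 were well above background on all 4 arrays. For plasma cell markers the sum of 6 genes was 28.3 and 14.0 in Meis1-WT and 5.11 and 27.1 in Meis1-KO. The part of such cells in the levels of *Bbc3*, *Pmaip1*, *Bcl2l11* and *Mcl1* was not tested.

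Other genes of the apoptosis pathway were read at their brightest probe. Of 52 genes in 4 lists, 50 were on the array and 45 were tested, and 0 met the criteria in limma, against 0.736% of all tested probes. The number with an unadjusted p under 0.05 was 0 of 45 in limma, 2 in the methods' t-test and 1 in the fit that blocks on slide. Over all 22007 tested probes these numbers were 618, 533 and 1305 in the same order. Of the 45, 14 had both Meis1-KO arrays above both Meis1-WT arrays and 4 had them below, beside 16.0% and 10.8% of all tested probes. Among the 4 were *Bcl2a1c* and *Ddit3*, which were not well above background on Meis1-KO 2 and entered the test through the Meis1-WT arrays. Nothing is read from the count of 4.

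The apoptosome, caspases and their inhibitors, a list that also held other genes such as *Vdac1* and *Vdac2*, were mostly higher in Meis1-KO, none past the criteria. Of 16 genes, 15 were higher and 1 lower, with a median difference of 0.41 beside 0.082 over all tested probes. The number higher was 16 of 16 with median scaling, 14 with quantile normalization or normexp, and 9 with no scaling between arrays, where the median was 0.028. Of all 22007 tested probes, 13683 were higher with median scaling, 11605 with quantile normalization and 14627 with normexp. With no scaling, 5626 of them were higher, with a median of -0.295. Meis1-KO 2 was the highest array for 14 of the 16, and for 44.8% of all tested probes. The summed linear signal of 5 erythroid marker genes, in units of the 75th percentile, was also highest on that array, at 249, against 99.8 on Meis1-KO 1 and 87.3 and 23.6 in Meis1-WT. Nearly all of each sum was *Hbb-b1*, at 6.577 and 7.95 in Meis1-KO and 6.331 and 4.485 in Meis1-WT on the log2 scale. Of the 5, 4 were well above background on all 4 arrays, and the 4 probes of *Hbb-b1*, a globin gene, were higher in both Meis1-KO arrays, by 1.86 to 2.07 on the log2 scale, though on slide 1 alone by only 0.25 to 0.60. The list did not move as a whole: *Epor* differed by 0.53, *Hba-a1*, the other globin gene listed, by -0.28, *Klf1* by -0.61, and *Alas2* by -0.076, each with overlapping groups. The part of erythroid cells in the levels of the apoptosome genes was not tested. On slide 1, 5 of 16 were lower, with a median of 0.066, and on slide 2 the median was 0.64.

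Among them, *Casp9*, the initiator caspase of the apoptosome, read 1.27 and 2.05 in Meis1-KO and 1.20 and 0.71 in Meis1-WT, a difference of 0.71 ± 0.49 (SE, n = 2). *Htra2*, a mitochondrial protease that blocks inhibitors of apoptosis, differed by 0.59 and *Birc2*, which encodes such an inhibitor, by 0.54. These 3 genes did not overlap between genotypes. Of the 16 genes given here, *Casp6* was the 1 lower in Meis1-KO, by a difference of -0.013, and the smallest unadjusted p of the list was 0.200 in limma.

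Of the other Bcl2 family members, 10 of 14 genes on the array were tested, 6 higher and 4 lower, with a median of 0.10. The largest differences were 0.82 for *Bcl2l12*, 0.80 for *Bok* and 0.37 for *Bnip3l*, and -0.86 for *Bcl2a1c*, -0.39 for *Bcl2l2* and -0.26 for *Bcl2a1b*. *Bcl2a1c* was not well above background on Meis1-KO 2 and entered the test through the Meis1-WT arrays, so nothing is read from its difference. The *Bcl2a1* genes are near-identical copies, so their probes may share signal. *Bcl2l2* encodes Bcl-w, another pro-survival protein, and *Bok* a relative of the effectors.

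Of 8 genes in the list of death receptors and their signaling partners, 6 were higher and 2 lower, with a median of 0.24. *Fas*, a death receptor, read -2.78 and -1.67 in Meis1-KO and -0.67 and -1.58 in Meis1-WT, a difference of -1.11 ± 0.58 (SE, n = 2; unadjusted p = 0.105 in limma). Meis1-WT 1 was the highest array for *Fas* too. *Ripk1* differed by -0.19, and *Tnfrsf1a*, *Casp8* and *Cflar*, the last of which encodes an inhibitor of caspase-8, by 0.58, 0.38 and 0.36.

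Of the transcription factors known to control the family, 11 of 12 were tested, 4 higher and 7 lower, with a median of -0.086. *Ddit3*, which encodes the stress factor Chop, read -2.39 and -4.29 in Meis1-KO and -1.18 and -2.16 in Meis1-WT, a difference of -1.66 ± 0.74 (SE, n = 2). The probe was not well above background on Meis1-KO 2, entered the test through the Meis1-WT arrays and was not tested where all 4 arrays had to be above background. In limma the unadjusted p was 0.0640, and with the slide as a block it was 0.00746 (adjusted p = 0.476), where the difference met the criteria, as 1.93% of all tested probes did, and given that filter nothing is read from the call. *Stat5a* and *Foxo3* differed by -0.41 and -0.35, and *E2f1*, *Myc* and *Stat5b* by 0.56, 0.23 and 0.16.

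**Figure D5:**
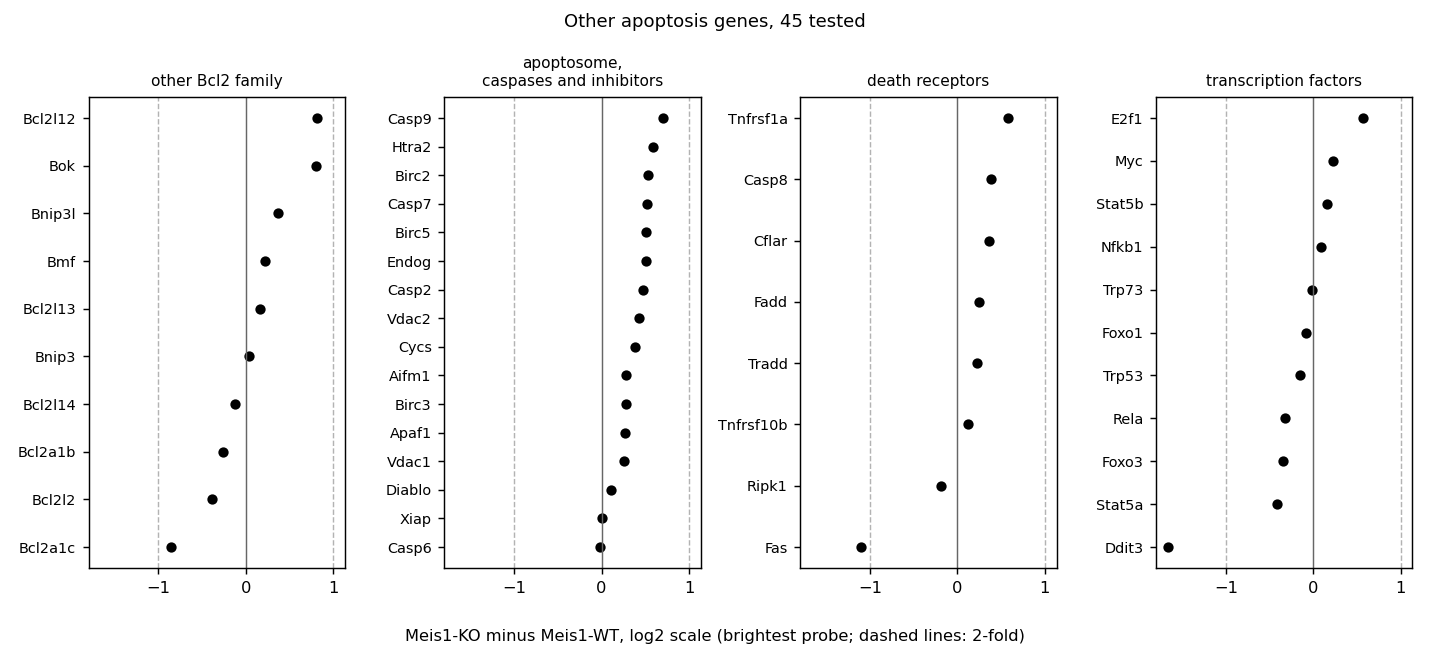
Differences of the 45 tested genes of the wider apoptosis pathway in 4 lists (x axis: Meis1-KO minus Meis1-WT on the log2 scale at the brightest probe; y axis: genes in order of the difference; dashed lines: 2-fold). The apoptosome list has 15 of 16 points right of 0, all within 2-fold, and Fas and Ddit3 are the only points beyond the dashed lines. Ddit3 was not well above background on Meis1-KO 2, so nothing is read from the place of its point.

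*Meis1* itself was lower on both Meis1-KO arrays. Its brighter probe read 0.28 and 0.24 in Meis1-KO and 1.04 and 1.47 in Meis1-WT (difference -1.0, unadjusted p = 0.0603 in limma). The dimmer probe read -2.4 and -3.5 in Meis1-KO and -1.5 and -1.0 in Meis1-WT. That probe was not well above background on Meis1-KO 2 and entered the test through the Meis1-WT arrays, so nothing is read from its size. Whether the *Meis1* probes lie in the deleted exon was not determined here. The 6 LSK markers, among them *Kit* and *Ly6a*, which encodes Sca-1, were well above background on all 4 arrays. Between 49.2% and 57.4% of spots were well above background, with Meis1-KO 2 the dimmest, and this array correlated with the others at 0.891 to 0.916 across probes, whereas the others correlated with each other at 0.956 to 0.967. Without Meis1-KO 2 the median of the pro-death probes was -0.30 and that of the pro-survival probes -0.028.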

How the data were processed

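RNA of 4 LSK samples, 2 per genotype, had been hybridized to 1-color Agilent arrays. The authors deposited the spot intensities as Feature Extraction wrote them (version 9.5.3.1 in the file headers, 9.1 in the submitters' processing notes), background-subtracted and not scaled between arrays, with positions on mm9. From these intensities, control spots and flagged outlier spots were dropped. Log2 values were averaged over the spots of a probe and set relative to the 75th percentile of the array. Tests covered the 22007 of 41174 probes that were well above background in both samples of either genotype. The fits used limma 3.58.1 (lmFit, then eBayes) under R 4.3.3, with Benjamini-Hochberg adjustment over all tested probes. The procedure was tested on simulated data.

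Slides carried both genotypes under the same replicate number, and the deviations of arrays from their genotype means correlated at 0.266 within a slide, so slide values are paired. The members and lists were chosen with earlier results of these data known. All member probes are named, the brightest being a gene's main probe. From the other lists, genes with an unadjusted p under 0.05 in limma with or without the block and up to 3 largest differences in each direction are named. 1 gene each of the apoptosome, B cell marker and erythroid marker lists are not reported here and are not in the counts or sums. RefSeq accessions matched the probe's own gene for 16 of 18 member probes (GRCm38.p6, names and strands only). Exon and untranslated annotation was not used here. Alternatives were other scalings, normexp with an offset of 50, the authors' series table, other filters, outliers kept, the block, a trend, the methods' t-test and each array left out. The alternative without scaling was chosen after seeing the data. The number of arrays limits the precision. With 2 samples against 2, an exact permutation test cannot give a two-sided p below 0.333, and none was run.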

Additional observations from a re-analysis of the deposited data

How the results depend on the processing

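The counts of 0 pro-survival and 0 pro-death member probes called held under all 15 alternatives, and of 240 values of single probes under alternatives, 206 kept their direction and 34 changed sign. Other apoptosis genes called went from 0 to 1 with the slide as a block (the pairing by replicate number), namely *Ddit3*. For these genes, calls with an array left out are not given, since 1 genotype then has a single array. *Endog* read -2.63 on Meis1-KO 1, its lowest array, and differed by 0.51 with all 4 arrays, where the groups overlapped. Without Meis1-KO 1 its difference was 1.75. *Ddit3* was not well above background on Meis1-KO 2, then the lone Meis1-KO array, so no size is given for it. The block changed no other call among these genes. With no scaling between arrays the median was -0.46 for the pro-survival and -0.40 for the pro-death probes. With an array left out, assuming equal spread in both genotypes, it ranged from -0.15 to 0.048 and from -0.30 to 0.15.

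Sign changes were as follows. Under median scaling, *Bcl2l1* A_52_P510877 was 0.011, *Bak1* A_52_P225207 0.060, *Bcl2l11* A_52_P158527 0.0056 and *Bid* 0.063. Under quantile normalization, *Bcl2* A_51_P380013 was -0.20, *Bak1* A_51_P395011 -0.012 and *Bid* 0.028, and under normexp they were -0.17, -0.023 and 0.0998. With no scaling, *Bcl2* A_51_P380013 was -0.36, *Bax* -0.34, *Bak1* A_51_P395011 -0.35 and the *Bad* clone probe -0.12. With an array left out, *Bcl2* ranged from -0.11 to 0.14 at A_51_P380013, from -0.28 to 1.12 at A_52_P438280 and from -0.74 to 0.26 at A_52_P534870. *Bcl2l1* A_52_P510877 ranged from -0.69 to 0.55, *Mcl1* from -0.47 to 0.26 and from -0.38 to 0.015, *Bax* from -0.51 to 0.59, and *Bak1* from -0.48 to 0.53 at A_51_P395011 and from -0.21 to 0.17 at A_52_P225207. *Bcl2l11* ranged from -0.82 to 0.67, *Bbc3* from -0.86 to 0.077, *Pmaip1* from -1.10 to 0.21 and *Bid* from -0.25 to 0.21. The cause was not tested. The 2 other tested *Bcl2l1* probes kept their sign under every alternative.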
